A study of Homo sapiens with 18 samples.

Results

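Cells in a newly printed tissue were compared with cells settled in 3D culture: 3 libraries of DP-3 on day 1 (DP-3 day 1) against 3 libraries of D-3 on day 14. These 6 libraries, chosen by their labels, are part of a series of 18 from human osteosarcoma (OS) cells labelled Saos-2, an established line. In DP-3 the cells were suspended in a bioink of methacrylated gelatin and alginate, printed as a grid and crosslinked with blue light and calcium chloride. In D-3 the cells were mixed with Matrigel, a basement membrane extract, and cultured as a drop in a dish. Both groups received the same complete medium with serum and neither carried a drug treatment or a genetic change. The 2 groups differed at once in the day of culture, the gel and the printing. These cannot be told apart in any difference between the 2 groups below. The 3 libraries of DP-3 on day 14 shared the gel and the printing with DP-3 day 1 and the day with D-3. They are given beside some genes as values, with no test.

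Cells that have just been detached, suspended and moved into a new gel are known to switch on immediate early genes such as FOS, which code for transcription factors made within minutes to hours of a stimulus, and heat shock genes, which code for chaperones. Cells that grow into dense clusters are known to meet gradients of nutrients and oxygen, which can engage the ATF4 programme for amino acid shortage and the unfolded protein response of the endoplasmic reticulum. NF-kB and interferon signalling, which drive cytokines and antigen presentation, are active in many tumour lines and respond to density and matrix. The gene lists below follow these programmes.

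Expression of genes that define the line went against its label in part. Saos-2 is known for high activity of alkaline phosphatase, the product of ALPL. In FPKM, the authors' value scaled by transcript length and library total, ALPL stood at 0.0917, 0 and 0.0212 in DP-3 day 1 and at 0.0831, 0.0613 and 0.0947 in D-3. SP7, an osteoblast transcription factor, and IBSP, a bone matrix protein, did not exceed 0.0949 in any of the 6 libraries, whereas the osteoblast regulator RUNX2 averaged 1.2 in DP-3 day 1 and 1.42 in D-3. The cells are therefore called here by their group names, and these genes, apart from RUNX2, were looked up after other values were seen. Of 8 lists of markers of macrophages, leukocytes, muscle, fat, red blood cells, keratinocytes, endothelium and fibroblasts, 6 held no gene that differed by the test given below. The keratinocyte list held KRT14, higher in DP-3 day 1, and ESRP1, a splicing factor of epithelial cells, with a mean FPKM of 0.229 in DP-3 day 1 and 3.14 in D-3, and the fibroblast list held PDGFRB. The leukocyte marker PTPRC was at most 0.0625. The summed FPKM of the macrophage list was 66.4 to 93.2 in DP-3 day 1 and 66.2 to 91.1 in D-3, most of it from CD68, which many other cells express, and that of the leukocyte list did not pass 2.22 in any of the 6.

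The libraries of DP-3 day 1 were more alike than those of D-3. Between pairs of them, 0.39% to 0.573% of the genes with an FPKM of at least 10 differed by 2-fold or more, against 1.18% to 3.9% between pairs of D-3 libraries and 0.593% to 0.984% in D-2, the 2D group of the series. Over genes with at least 1000 read pairs, the median squared difference was 3.83 to 4.16 times the variance of counting in DP-3 day 1 and 26.6 to 62.9 times in D-3, so the DP-3 day 1 libraries differed by more than counting error, but nothing in the labels says that they came from separate cultures. All p-values therefore measure the spread between these libraries, which may be technical. Total estimated counts were 50327345 to 50913046 in DP-3 day 1 and 60226010 to 67231699 in D-3. Despite the lower totals, more genes reached an FPKM of 0.1 in DP-3 day 1, 24694 to 24791, than in D-3, 21384 to 22322, without overlap (exact permutation test, two-sided, p = 0.1, the smallest that 3 against 3 allows). At an FPKM of at least 1 the ranges overlapped, at 12759 to 12775 in DP-3 day 1 and 12621 to 12980 in D-3. Pseudogenes, of which 3683 to 3786 were detected in DP-3 day 1 and 2337 to 2497 in D-3, and long non-coding RNAs made up most of the difference, 1310 and 719 of 2840 genes between the group means. Of 353 genes for olfactory receptors, which are normally silent outside the nose, 213 to 228 had a count in DP-3 day 1 and 39 to 53 in D-3. The summed level of these genes overlapped between the groups, at 59.7 ± 4.77 CPM, counts scaled to the library total, in DP-3 day 1 and 50.9 ± 6.74 in D-3 (SD, n = 3, exact permutation test, two-sided, p = 0.2). Every library of the series outside DP-3 day 1 had a count in 16 to 59 receptor genes and detected 1665 to 2497 pseudogenes. A difference in library preparation was not tested and cannot be told apart from day, gel and printing.

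Between DP-3 day 1 and D-3, 664 of 22323 genes tested were differentially expressed genes (DEGs), with an adjusted p below 0.05 and a fold change of at least 2 (2.97%). Of these, 217 were higher in DP-3 day 1 (0.972%) and 447 were lower (2.00%), and 5300 genes had an unadjusted p below 0.05. The median log2 fold change of DP-3 day 1 over D-3 was -0.02 over all genes tested. In all 664 DEGs the FPKM values of the groups did not overlap, as was so for 3870 genes (17.3%) that were higher and 3247 (14.5%) that were lower. The counts of each list below are to be set against these shares over all genes tested. The count rested on treating the DP-3 day 1 libraries as 3 replicates: summed to 1 sample against 3 D-3 libraries they gave 0 DEGs by the same test, with 1640 genes at an unadjusted p below 0.05. Leaving out DP-3 day 1 replicate 1, 2 or 3 left 45, 36 and 28 DEGs. Without D-3 replicate 1, 2 or 3 there were 307, 1315 and 266, so D-3 replicate 2 widened the spread. Under the 21 alternatives other than the summed one, 18 genes were DEGs throughout. The 5 that were higher in DP-3 day 1 included BMF, PDGFRB, PMEPA1 and ARRB1. The 13 that were lower were IL6, IL13RA2, IL20RB, LCN2, PTX3, IFITM1, HLA-B, ASNS, INHBE, HOXB9, OLAH, SLC14A1 and PFDN2.

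**Figure D1:**
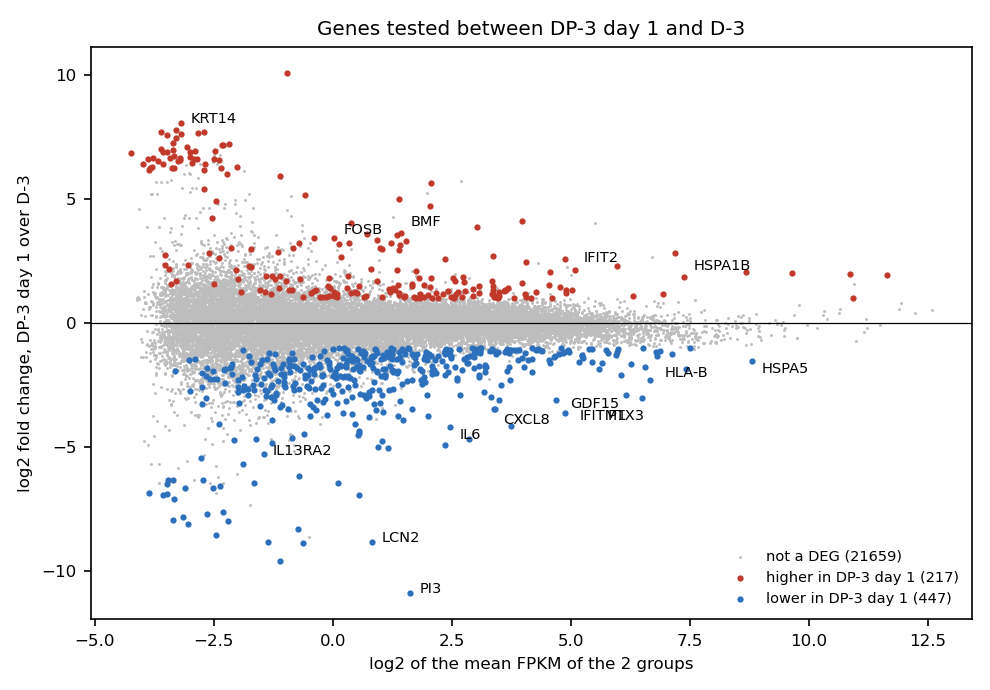
Each point is a gene tested, with the log2 of its mean FPKM over the 2 groups on the x axis and its log2 fold change of DP-3 day 1 over D-3 on the y axis. The 447 lower DEGs spread over all levels, while many of the 217 higher DEGs form a cloud at the left edge, where the genes are at or near 0 in D-3.

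Of the 217 higher DEGs, 82 had a mean FPKM under 1 in both groups, as did 117 of the 447 lower DEGs and 8841 of the 22323 genes tested. No D-3 library was above 12 estimated counts, about 3 read pairs, in 69 of the higher DEGs, and no DP-3 day 1 library was in 42 of the lower DEGs. KRT14, a keratin of basal keratinocytes, is one of the 69. Its FPKM was 0.307, 0.117 and 0.233 in DP-3 day 1 and 0 in all 3 D-3 libraries, which was at least 3.16-fold higher against the floor of 12 counts per library. KRT5, its partner in the same filaments, was at 0, 0.0143 and 0.0701 in DP-3 day 1 and 0, 0.0247 and 0.0542 in D-3. The account below turns on genes that reach higher levels in at least 1 group.

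Inflammatory genes were the list with the lowest median log2 fold change. Of 22 genes tested for chemokines, interleukins and colony stimulating factors, 7 were lower DEGs, 1 was a higher DEG and 14 did not pass, with a median log2 fold change of -1.41. IL6 (ENSG00000136244, chromosome 7, 22725884 to 22732002 on GRCh38, plus strand), a cytokine of the acute-phase response, had an FPKM of 0.508, 0.515 and 0.708 in DP-3 day 1 and 7.79, 10.1 and 13.3 in D-3. CXCL8 (ENSG00000169429, chromosome 4, 73740541 to 73743716, plus strand), which attracts neutrophils, was at 1.65, 1.68 and 1.92 in DP-3 day 1 and at 11.1, 18.1 and 28.0 in D-3. In both genes every DP-3 day 1 library lay below every D-3 library, and the log2 fold change was -4.18 ± 0.28 (SE, adjusted p = 0.0025 by edgeR's quasi-likelihood test) for IL6 and -3.48 ± 0.34 (adjusted p = 0.0077) for CXCL8. The same test gave -4.06 ± 0.66 (adjusted p = 0.0212) for the interferon-inducible chemokine CXCL10, -1.94 ± 0.33 (adjusted p = 0.0227) for CXCL2 and -2.11 ± 0.36 (adjusted p = 0.0233) for CSF2, a growth factor of granulocytes and macrophages. CCL20, a chemokine for immature dendritic cells, had 2 read pairs in the 3 DP-3 day 1 libraries together and 204 in the D-3 libraries, an 80.5-fold ratio per total count (95% exact interval 22 to 669, which covers counting error only). The seventh was IL32, with a log2 fold change of -1.5. CCL5 went the other way, at 14.4, 15.5 and 16.3 in DP-3 day 1 and 5.98, 8.65 and 6.54 in D-3 (log2 fold change 1.07 ± 0.18, adjusted p = 0.0224).

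NF-kB, which controls many cytokine genes, reads sites that start in GG and end in TTCC. The core GGNNNTTCC, searched on both strands after the expression values were seen, was in the 250 bases before the start of all 7 lower DEGs of the list and in 2 of the 7 genes that did not pass and had a promoter in the RefSeq table (GRCh38.p14). Among the first promoters of all 27305 genes there, 17.1% held it. Other lists did not show this split: the core was in 2 of 3 lower DEGs and 7 of 13 others among NF-kB regulators and targets, in 2 of 3 and 4 of 9 among MHC class I genes, and in 1 of 3 and 6 of 15 in the complement and coagulation list. In NFKBIA, the inhibitor of NF-kB and itself a target gene, the core was present too and the FPKM was 22.9, 26.3 and 27.8 in DP-3 day 1 and 29.1, 22 and 21.9 in D-3 (log2 fold change 0.03, adjusted p = 0.928). Shown are IL6, CXCL8 and LCN2, which had some of the deepest falls, with the core in capitals, from 250 bases before the start to the last base before it. The windows lie at chr7:22726950-22727199, chr4:73740319-73740568 and chr9:128149203-128149452, all on the plus strand. Here and below the start is that of the RefSeq table, so a window can lie within the annotated range of its gene, as for IL6.
IL6: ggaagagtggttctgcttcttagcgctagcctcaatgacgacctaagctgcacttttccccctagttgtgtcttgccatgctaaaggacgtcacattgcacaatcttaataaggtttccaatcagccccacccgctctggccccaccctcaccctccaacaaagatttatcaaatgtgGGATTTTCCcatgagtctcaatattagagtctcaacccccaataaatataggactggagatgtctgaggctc
CXCL8: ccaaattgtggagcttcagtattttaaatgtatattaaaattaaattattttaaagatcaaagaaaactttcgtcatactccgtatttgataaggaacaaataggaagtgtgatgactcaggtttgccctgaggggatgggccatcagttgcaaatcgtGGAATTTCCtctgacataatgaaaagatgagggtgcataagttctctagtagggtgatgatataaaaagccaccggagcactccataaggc
LCN2: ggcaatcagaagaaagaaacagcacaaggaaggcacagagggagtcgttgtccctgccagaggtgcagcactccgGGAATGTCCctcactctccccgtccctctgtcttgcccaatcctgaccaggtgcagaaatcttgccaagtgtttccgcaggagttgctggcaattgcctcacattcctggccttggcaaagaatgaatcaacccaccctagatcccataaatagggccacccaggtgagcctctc

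SAA1 and SAA2 code for near-identical serum amyloid A proteins, whose reads cannot be split with certainty, so they are given as a sum: 0.558, 0.526 and 0.87 FPKM in DP-3 day 1 against 17.8, 10.9 and 26.3 in D-3, a 28.1-fold difference of the means. Each gene was also a DEG by itself, with log2 fold changes of -4.68 for SAA1 and -5.03 for SAA2. PTX3, a pattern recognition molecule of the pentraxin family, had FPKM values of 16, 18.7 and 17.6 in DP-3 day 1 and 143, 93.4 and 143 in D-3 (log2 fold change -2.9 ± 0.19, adjusted p = 0.0025). LCN2, which binds bacterial siderophores, was listed at 0, 0 and 0.0178 in DP-3 day 1 and at 3.23, 3.23 and 4.11 in D-3. The protease inhibitor PI3, or elafin, was 0 in all 3 DP-3 day 1 libraries and 3.14, 9.45 and 5.78 in D-3, at least 17.2-fold lower. SLPI, a related inhibitor, averaged 1.79 ± 0.163 in DP-3 day 1 and 19.3 ± 11.4 in D-3 (SD, n = 3, log2 fold change -3.48 ± 0.46, adjusted p = 0.0132). TNFAIP6, which remodels hyaluronan, averaged 1.56 in DP-3 day 1 and 11.3 in D-3. Apart from the SAA genes, these 5 were named after their values were seen.

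IL13RA2, a decoy receptor for IL-13, had 0.0716, 0.15 and 0.117 FPKM in DP-3 day 1 and 3.79, 3.34 and 4.05 in D-3 (log2 fold change -5.0 ± 0.34, adjusted p = 0.0025). IL20RB, a receptor chain for IL-20 cytokines named after its values were seen, was at 0.592, 0.465 and 0.627 against 6.15, 7.85 and 8.33 (log2 fold change -3.76 ± 0.22, adjusted p = 0.0025). Of 18 NF-kB regulators and targets tested, 3 were lower DEGs and none higher, with a median of -0.42. The 3 were ICAM1 and VCAM1, which bind leukocyte integrins, with log2 fold changes of -3.34 and -1.84, and SOD2, the mitochondrial superoxide dismutase, with -1.78. ICAM1 and VCAM1 were at most 0.758 FPKM in every library. In the complement and coagulation list, 6 of 27 genes tested were lower DEGs and 1 was higher, with a median of -0.3. Complement C3 was 3.64, 3.68 and 4.16 in DP-3 day 1 and 8.27, 15.4 and 19.5 in D-3 (log2 fold change -1.96 ± 0.29, adjusted p = 0.0173), and factor B of the alternative pathway, CFB, was 7.31, 8.15 and 7.39 against 28.2, 23.5 and 35.3 (log2 fold change -1.97 ± 0.16, adjusted p = 0.005). C1R and C1S, the proteases of the classical pathway, had -1.7 and -1.74.

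**Figure D2:**
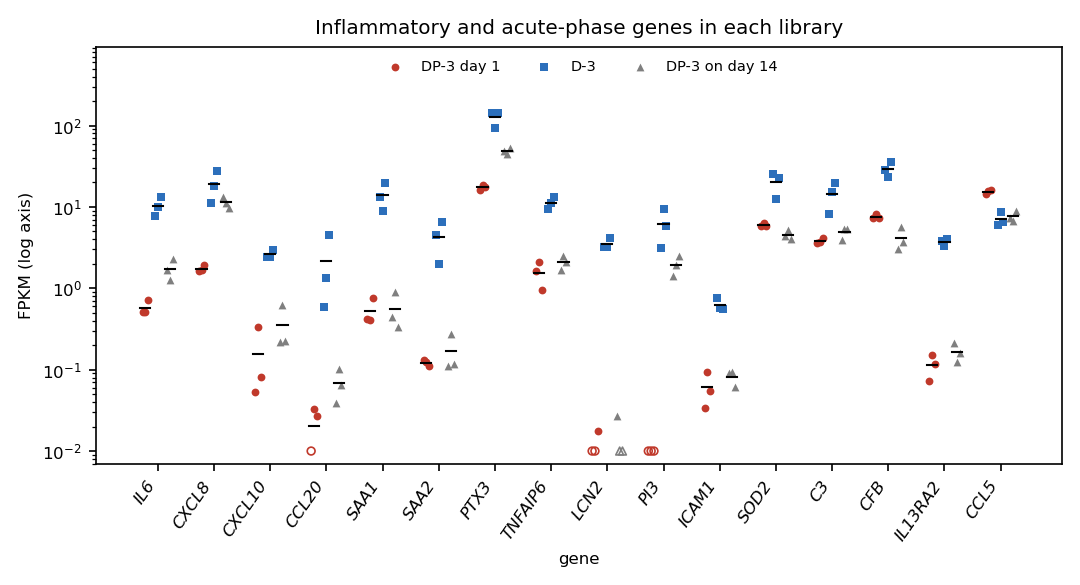
FPKM on a log axis of 16 genes in each library of DP-3 day 1 (circles), D-3 (squares) and DP-3 on day 14 (triangles), with bars at the group means and open symbols for values under 0.01, drawn at 0.01. In 15 of the genes, all but CCL5, the circles lie below the squares.

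DP-3 on day 14 gave levels of its own. IL6 was at 1.67, 1.26 and 2.32 FPKM there, above the highest DP-3 day 1 library and below the lowest D-3 library. CXCL8, at 13.2, 11.1 and 9.78, overlapped D-3. LCN2 was at 0.0272, 0 and 0, SAA1 at 0.445, 0.895 and 0.332 and IL13RA2 at 0.213, 0.125 and 0.16, close to the values of DP-3 day 1. PTX3 stood between the groups at 48.6, 45.0 and 53.5.

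Interferon-stimulated genes split. Of 33 tested, 5 were higher DEGs in DP-3 day 1, 7 were lower and 21 did not pass, with a median log2 fold change of -0.17. The higher ones were RSAD2, IFIT2, OASL, HERC5 and IFIT3, which code for antiviral proteins. IFIT2 (ENSG00000119922, chromosome 10, 89283694 to 89309271, plus strand) was at 56.2, 53.7 and 56.8 FPKM in DP-3 day 1 and 6.77, 15.7 and 13.7 in D-3 (log2 fold change 2.15 ± 0.29, adjusted p = 0.014). RSAD2, or viperin, was at 17.4, 18.5 and 17.8 against 1.31, 5.21 and 1.37 (log2 fold change 2.71 ± 0.55, adjusted p = 0.0352), with D-3 replicate 2 the highest of its group in both genes. OASL was 4.2-fold higher (log2 fold change 2.07 ± 0.35, adjusted p = 0.0226). IFIT1 and ISG15 did not pass, with log2 fold changes of 1.2 (adjusted p = 0.0706) and 0.79 (adjusted p = 0.29).

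The lower interferon-stimulated genes were IFITM1, IFI6, IRF9, IFI44L, BST2, IFITM3 and IFITM2. IFITM1, which blocks virus entry at membranes, was at 4.35, 3.93 and 5.39 FPKM in DP-3 day 1 and 54.8, 65.8 and 42.9 in D-3 (log2 fold change -3.62 ± 0.22, adjusted p = 0.0025). IFITM2 and IFITM3 are close copies of each other and of IFITM1, so their reads are less certain, and they had -1.1 and -1.11. IFI6 was at 22.8, 19.7 and 18 against 126, 246 and 107 (log2 fold change -3.03 ± 0.33, adjusted p = 0.00947). IRF9, the DNA-binding subunit of the factor that type I interferon activates, was at 0.69, 1.43 and 1.16 against 5.82, 5.82 and 4.17 (log2 fold change -2.28 ± 0.3, adjusted p = 0.013). The letters GAAANNGAA of an interferon response element, searched on both strands after the values were seen and after a longer form of the element, which matched fewer promoters, lay before the start of 3 of 3 higher DEGs, 5 of 6 lower DEGs and 9 of 16 others with a promoter in the RefSeq table, against 7.06% of all promoters. In the MHC class I list it lay before 1 of 3 lower DEGs and 5 of 9 others. IFIT3, from the higher genes, has 2 matches, and IFITM1, from the lower genes, has 1, shown in capitals for windows at chr10:89327747-89327996 and chr11:313790-314039, both on the plus strand.
IFIT3: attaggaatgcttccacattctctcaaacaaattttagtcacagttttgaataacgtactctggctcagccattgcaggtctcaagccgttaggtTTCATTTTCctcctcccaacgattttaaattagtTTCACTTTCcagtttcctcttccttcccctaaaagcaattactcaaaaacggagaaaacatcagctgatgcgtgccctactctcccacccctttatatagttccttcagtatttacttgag
IFITM1: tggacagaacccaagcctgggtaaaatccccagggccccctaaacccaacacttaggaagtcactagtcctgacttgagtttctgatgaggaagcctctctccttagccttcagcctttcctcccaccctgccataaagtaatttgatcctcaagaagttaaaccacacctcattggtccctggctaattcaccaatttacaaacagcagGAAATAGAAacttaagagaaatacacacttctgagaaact

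Of 15 genes of antigen presentation by MHC class I, 4 were lower DEGs in DP-3 day 1, none was higher and 11 did not pass. Without overlap 11 were lower (73.3%) and 1 was higher (6.67%), against 14.5% and 17.3% of all genes tested, and the median log2 fold change was -0.76. HLA-B (ENSG00000234745, chromosome 6, 31269491 to 31357179, minus strand) was at 35.5, 34.1 and 37.3 FPKM in DP-3 day 1 and 200, 166 and 139 in D-3 (log2 fold change -2.29 ± 0.15, adjusted p = 0.0025). HLA-C had -0.78 (adjusted p = 0.0138), under the threshold of fold. Class I genes resemble each other, and the annotated range of HLA-B overlaps HLA-C, so the split of their reads is uncertain. B2M, the shared light chain, was 66.9, 51.0 and 67.0 against 117, 112 and 135 (log2 fold change -1.03 ± 0.14, adjusted p = 0.0142). PSMB9, a subunit of the immunoproteasome that cuts peptides for these molecules, averaged 4.41 ± 0.701 in DP-3 day 1 and 11.2 ± 0.569 in D-3 (SD, n = 3, adjusted p = 0.00936). In DP-3 on day 14, HLA-B was at 36.2, 47.7 and 22.7, near the DP-3 day 1 level.

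**Figure D3:**
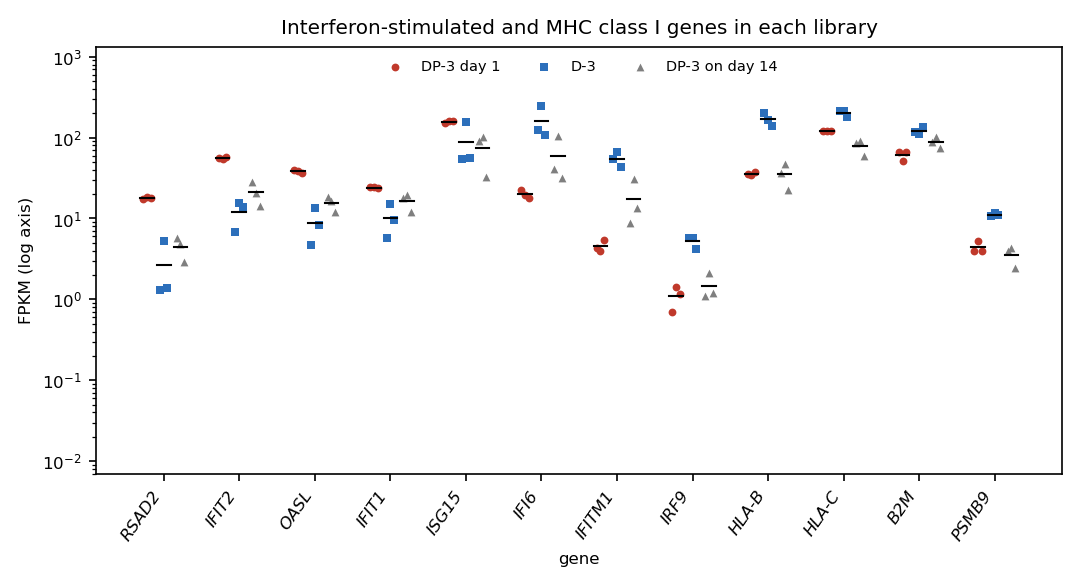
FPKM on a log axis of interferon-stimulated and MHC class I genes in each library, with symbols and bars as in the plot of inflammatory genes. The circles of DP-3 day 1 lie above the squares of D-3 for RSAD2, IFIT2, OASL and IFIT1 and below them for IFI6, IFITM1, IRF9 and the HLA genes.

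Of 26 genes of the ATF4 response tested, 6 were lower DEGs in DP-3 day 1, none was higher and 20 did not pass. Without overlap 14 were lower (53.8%) and 1 was higher (3.85%), against 14.5% and 17.3% of all genes tested, and the median was -0.58. ASNS (ENSG00000070669, chromosome 7, 97851677 to 97872542, minus strand), which makes asparagine, was at 8.57, 9.58 and 9.59 FPKM in DP-3 day 1 and 25.3, 23.8 and 26.9 in D-3 (log2 fold change -1.5 ± 0.1, adjusted p = 0.0025). DDIT3, or CHOP, a transcription factor of prolonged stress, was at 26.0, 30.2 and 21.8 against 145, 64.6 and 112 (log2 fold change -2.09 ± 0.29, adjusted p = 0.0142). The stress hormones FGF21 and GDF15 had -3.59 ± 0.5 (adjusted p = 0.0142) and -3.11 ± 0.41 (adjusted p = 0.013), and TRIB3, a pseudokinase, and STC2, a secreted glycoprotein, had -1.34 and -1.02. These genes were not near D-3 in DP-3 on day 14. ASNS was at 3.37, 5.46 and 5.73 there, DDIT3 at 7.29, 8.36 and 5.97 and GDF15 at 1.57, 1.44 and 3.38. Those values, like TRIB3 and STC2, were below DP-3 day 1, while FGF21, at 0.186, 0.121 and 0, overlapped it. The ATF4 transcript itself did not pass, at 22.9, 21.7 and 20.6 in DP-3 day 1 and 157, 24.9 and 40.9 in D-3 (adjusted p = 0.131), with D-3 replicate 1 far above the others. INHBE, an activin subunit outside the list that was named after its values were seen, was at 8.13, 7.75 and 6.78 against 26.0, 22.7 and 26.1 (log2 fold change -1.77 ± 0.12, adjusted p = 0.0025). The ATF4 element TGATGNAA was in the promoters of 2 of the 6 lower DEGs, ASNS and FGF21, in 1 of 15 others and in 3.19% of all promoters. It is in capitals in the ASNS window at chr7:97872409-97872658 on the minus strand.
ASNS: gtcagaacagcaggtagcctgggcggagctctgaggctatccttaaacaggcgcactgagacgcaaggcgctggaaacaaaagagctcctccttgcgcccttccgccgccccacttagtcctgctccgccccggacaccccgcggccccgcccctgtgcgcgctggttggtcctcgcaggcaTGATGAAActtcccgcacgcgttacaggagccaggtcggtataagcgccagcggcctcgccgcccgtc

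Of 21 genes of the unfolded protein response tested, 1 was a lower DEG, none was higher and the median was -0.56. Without overlap 13 were lower (61.9%, against 14.5% of all genes tested). The DEG was HSPA5, or BiP, the main chaperone of the endoplasmic reticulum, at 242, 236 and 234 FPKM in DP-3 day 1 and 750.0, 726 and 491 in D-3 (log2 fold change -1.51 ± 0.17, adjusted p = 0.01). HSPA5 in DP-3 on day 14 was at 321, 381 and 374, between the groups.

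Immediate early genes gave 4 higher and 2 lower DEGs of 28 tested, with a median log2 fold change of 0.21. Without overlap 13 were higher (46.4%) and 4 lower (14.3%), against 17.3% and 14.5% of all genes tested. FOS was at 3.71, 4.51 and 4.4 FPKM in DP-3 day 1 and 0.419, 1.4 and 0.918 in D-3 (log2 fold change 2.14 ± 0.41, adjusted p = 0.0315). FOSB, its relative, was at 2.72, 1.72 and 1.48 against 0.0841, 0.413 and 0.118 (log2 fold change 3.18 ± 0.62, adjusted p = 0.0327). KLF2, a factor induced by fluid shear, was at 15.5, 15.1 and 15.0 against 4.14, 7.24 and 4.42 (log2 fold change 1.48 ± 0.23, adjusted p = 0.0182). ARC was the fourth, with 1.4. FOS and FOSB in DP-3 on day 14, at 0.527, 0.691 and 0.812 and at 0.167, 0.118 and 0.178, lay within the ranges of D-3. JUN, the usual partner of FOS, was at 80.8, 81.3 and 82.8 against 50.0, 76.3 and 61.5 and did not pass (adjusted p = 0.262). IER3, an early gene that NF-kB also controls, went down, at 0.385, 0.23 and 0.428 against 2.78, 2.67 and 4.46 (log2 fold change -3.26 ± 0.39, adjusted p = 0.0112), as did the phosphatase DUSP5 (log2 fold change -1.27 ± 0.28, adjusted p = 0.0419). The AP-1 site TGANTCA was in none of the list's promoters in the RefSeq table, 3 of higher DEGs and 18 of genes that did not pass, and in 6.6% of all promoters.

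Among heat shock genes and chaperones, 1 of 24 tested was a higher DEG and none was lower, with a median of 0.12. Without overlap 11 were higher (45.8%) and 3 lower (12.5%), against 17.3% and 14.5% of all genes tested. HSPA1A and HSPA1B code for the same inducible HSP70 protein from near-identical copies, so their sum is given: 447, 443 and 449 FPKM in DP-3 day 1 and 88.4, 92.8 and 116 in D-3, a 4.5-fold difference of the means. Their sum in DP-3 on day 14 was 315, 227 and 240, between the groups. HSPA1B (ENSG00000204388, chromosome 6, 31827738 to 31830254, plus strand) was the DEG (log2 fold change 1.85 ± 0.16, adjusted p = 0.00631). HSPA1A was listed at 0.989, 36.5 and 46.5 in the D-3 libraries and did not pass (2.65 ± 1.04, adjusted p = 0.181). BAG3, a cochaperone of HSP70, was at 58.6, 61.3 and 60.8 against 30.4, 33.7 and 29.5, with a log2 fold change of 0.9 (adjusted p = 0.00938). The constitutive HSPA8 had 0.14 (adjusted p = 0.594). The heat shock element unit GAANNTTC was found in 5.85% of all promoters and in 6 of 20 of the list's genes that did not pass. It is in capitals in the HSPA1B window at chr6:31827488-31827737 on the plus strand, shown because this gene was the DEG of the list.
HSPA1B: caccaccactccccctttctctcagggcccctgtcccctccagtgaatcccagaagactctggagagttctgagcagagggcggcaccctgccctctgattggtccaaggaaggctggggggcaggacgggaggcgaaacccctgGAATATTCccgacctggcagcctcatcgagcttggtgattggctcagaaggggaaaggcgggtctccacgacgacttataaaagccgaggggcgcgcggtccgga

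**Figure D4:**
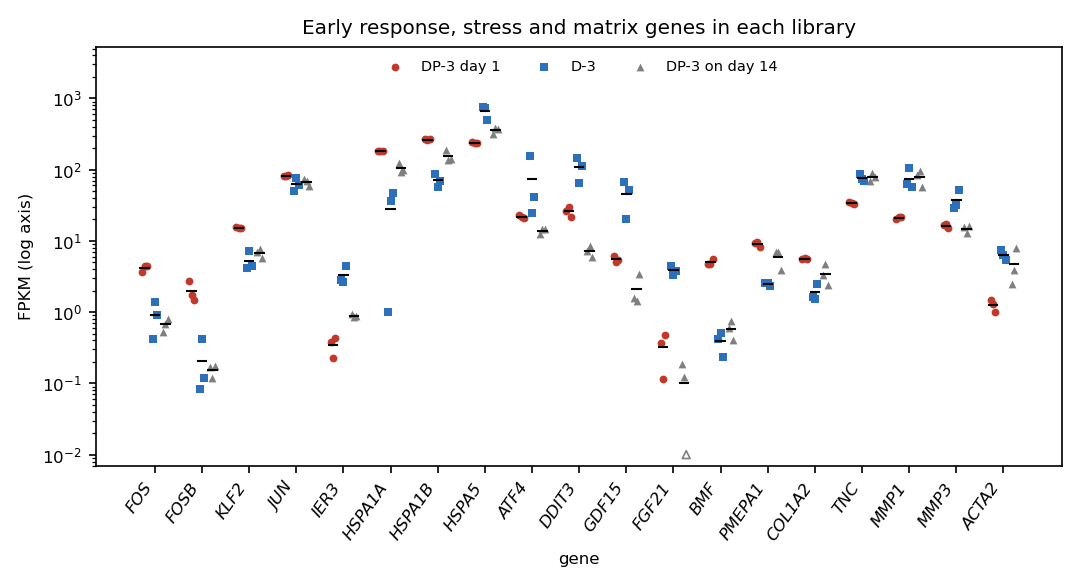
FPKM on a log axis of early response, stress and matrix genes in each library, with symbols and bars as in the plot of inflammatory genes. For FOS, FOSB, KLF2, both HSPA1 copies, BMF, PMEPA1 and COL1A2 the DP-3 day 1 circles are above every D-3 square, and for IER3, HSPA5, DDIT3, GDF15, FGF21, TNC, MMP1, MMP3 and ACTA2 they are below.

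Matrix genes gave DEGs in both directions. Of 27 collagens tested, 2 were higher DEGs and none was lower, with a median of -0.16. Without overlap 11 were lower (40.7%) and 6 higher (22.2%), against 14.5% and 17.3% of all genes tested. At an adjusted p below 0.05 by the same edgeR test and any fold change, 4 were lower and 3 higher. COL1A2, a chain of type I collagen, was at 5.6, 5.76 and 5.58 FPKM in DP-3 day 1 and 1.63, 1.52 and 2.51 in D-3 (log2 fold change 1.53 ± 0.2, adjusted p = 0.013). Its partner chain COL1A1 differed in the other direction, at 1.79, 1.99 and 1.9 against 2.69, 2.94 and 3.01, by less than 2-fold (-0.65 ± 0.12, adjusted p = 0.0305). COL4A1, of basement membranes, was at 22.8, 21.6 and 23.2 against 7.91, 10.9 and 13.0 (log2 fold change 1.04 ± 0.18, adjusted p = 0.0237). Of 24 matrix glycoproteins and crosslinking enzymes, 1 was higher and 2 were lower, with a median of -0.2. LOXL1, which crosslinks elastin, was 2.49-fold higher (adjusted p = 0.0112). TNC, or tenascin C, a glycoprotein of remodelled tissue, was lower, at 35.3, 34.1 and 32.5 against 87.5, 72.8 and 69.8 (log2 fold change -1.22 ± 0.12, adjusted p = 0.00729). POSTN, or periostin, had -2.71, at no more than 0.502 FPKM in any of the 6 libraries.

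The matrix metalloproteinases held 3 lower DEGs and no higher one among 27 proteases and inhibitors tested, with a median of -0.02. The interstitial collagenase MMP1 was at 20.5, 21.6 and 21.6 FPKM in DP-3 day 1 and 62.8, 106 and 56.1 in D-3 (log2 fold change -1.87 ± 0.24, adjusted p = 0.013). MMP3, or stromelysin 1, was at 16.6, 17.0 and 15.3 against 29.3, 31.6 and 52.4 (log2 fold change -1.26 ± 0.23, adjusted p = 0.0257). MMP10 had -1.8. The gelatinase MMP2 and its activator MMP14 differed in the other direction by less than 2-fold, with log2 fold changes of 0.88 (adjusted p = 0.012) and 0.66 (adjusted p = 0.0178).

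TGF-beta targets gave 2 higher DEGs of 17 tested and none lower, with a median of 0.25. One, PMEPA1, a feedback inhibitor of the pathway, was at 9.39, 9.6 and 8.25 FPKM in DP-3 day 1 and 2.57, 2.58 and 2.3 in D-3 (log2 fold change 1.82 ± 0.12, adjusted p = 0.0025). Of 18 actin cytoskeleton and SRF targets, 2 were lower DEGs and none higher, with a median of -0.22. Smooth muscle actin, ACTA2, which TGF-beta and SRF control, was lower, at 1.46, 1.29 and 1.01 against 7.43, 6.42 and 5.39 (log2 fold change -2.38 ± 0.22, adjusted p = 0.00651). Of 24 YAP and TEAD targets, 3 were lower DEGs, GADD45A, IGFBP3 and ANKRD1, with -1.19, -1.8 and -1.46, while the list's median was 0.07. BMP targets gave 1 higher DEG of 14, the repressor ID2 (1.3), with a median of 0.4, and ID1 did not pass (-0.42, adjusted p = 0.523). In the Wnt list, WNT5B (1.38) and FZD1 (1.06) were higher and the antagonist DKK3 (-1.87) was lower, of 21 tested. PDGFRB, the receptor for platelet-derived growth factor that fibroblast-like cells carry, was at 10.8, 9.75 and 10.6 against 3.44, 2.59 and 3.44 (log2 fold change 1.67 ± 0.14, adjusted p = 0.00516).

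Bone and transcription factor genes added single members. SPP1, or osteopontin, was at 1.16, 0.948 and 1.22 FPKM in DP-3 day 1 and 0.117, 0.0997 and 0.114 in D-3 (log2 fold change 3.21 ± 0.34, adjusted p = 0.00911). PHEX, which limits loss of phosphate, had -1.34 (adjusted p = 0.0224). With COL1A2 these were the DEGs of the bone list, and the other 11 of 14 genes tested did not pass. HOXB9 was the only DEG of 24 HOX genes, at 4.25, 4.79 and 4.65 against 22.8, 18.6 and 23.7 (log2 fold change -2.3 ± 0.14, adjusted p = 0.0025). BMF, a pro-apoptotic BH3-only protein linked to loss of anchorage, was at 4.77, 4.81 and 5.57 against 0.426, 0.511 and 0.233 (log2 fold change 3.62 ± 0.3, adjusted p = 0.00514) and was the only DEG of 18 apoptosis regulators.

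Lists of receptors and ligands at the cell surface each held 1 or 2 DEGs. Lower DEGs were 3.85% of the integrin and laminin genes tested, 7.69% of the EGF receptor family and 14.3% of the insulin-like growth factor system. Higher DEGs were 3.85% of the integrins and laminins. Over all genes tested, 2.00% were lower and 0.972% higher DEGs. Of 26 integrins and laminins tested, ITGA10, a collagen-binding integrin chain, was higher, at 17.7, 18.6 and 17.3 FPKM in DP-3 day 1 and 9.07, 5.11 and 6.52 in D-3 (log2 fold change 1.32 ± 0.2, adjusted p = 0.0174). One gene of the list was lower, and its median was -0.19. In the EGF receptor family, with 13 tested and a median of -0.03, the ligand EREG was the one DEG (log2 fold change -2.5 ± 0.29, adjusted p = 0.0109), at no more than 0.173 in DP-3 day 1 and 0.654, 1 and 0.854 in D-3, while the receptor EGFR was higher by less than 2-fold (0.75 ± 0.13, adjusted p = 0.0237). Among 14 genes of the insulin-like growth factor system, 2 were lower DEGs, the binding protein IGFBP3 and STC2, with a median of -0.33. TLR4, the receptor for endotoxin, was higher, at 6.02, 5.89 and 6.27 against 1.35, 3.06 and 2.06 (log2 fold change 1.44 ± 0.28, adjusted p = 0.0315), and at 7.1, 5.53 and 7.23 in DP-3 on day 14. The tight junction protein CLDN1 was lower, at 0.103, 0.143 and 0.139 against 4.44, 0.717 and 3.2 (log2 fold change -4.45 ± 0.68, adjusted p = 0.0176), with D-3 replicate 2 nearest to DP-3 day 1. ARRB1, or beta-arrestin 1, which couples receptors to the endocytic machinery, was at 11.8, 13.1 and 12.8 against 4.01, 4.92 and 3.97 (log2 fold change 1.5 ± 0.12, adjusted p = 0.00514). TLR4 and ARRB1 were named after their values were seen.

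Among the genes at high levels, LCP1, or L-plastin, a protein that bundles actin, was lower, at 87.5, 80.6 and 84.1 FPKM in DP-3 day 1 and 241, 160.0 and 186 in D-3 (log2 fold change -1.27 ± 0.16, adjusted p = 0.0115). PFDN2, a subunit of the prefoldin complex that hands actin and tubulin to their chaperonin, was lower, at 69.1, 64.1 and 64.7 against 160.0, 164 and 156 (log2 fold change -1.33 ± 0.09, adjusted p = 0.00267). OLAH, a thioesterase that releases medium-chain fatty acids, was at 0.282, 0.29 and 0.484 against 4.96, 5.44 and 5.29 (log2 fold change -3.91 ± 0.28, adjusted p = 0.00267). SLC14A1, a urea transporter, was at 0.154, 0.14 and 0.101 against 1.49, 2.07 and 1.53 (log2 fold change -3.71 ± 0.27, adjusted p = 0.00304). PFDN2, OLAH and SLC14A1 belong to the 18 genes above that were DEGs under 21 alternatives, and were named after their values were seen. In DP-3 on day 14, SLC14A1 was at 5.12, 2.82 and 2.83, above D-3, and OLAH was at 0, 0.0267 and 0.

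None of 32 cell cycle and mitosis genes and none of 38 genes of DNA replication was a DEG, with medians of -0.09 and 0.31. MKI67, the proliferation antigen, was at 18.9, 17.9 and 9.23 FPKM in DP-3 day 1 and 8.68, 16.1 and 13.1 in D-3 (log2 fold change 0.23 ± 0.32, adjusted p = 0.723). PCNA, the replication clamp, was at 85.7, 81.9 and 80.4 against 39.7, 91.5 and 54.9 (0.36 ± 0.28, adjusted p = 0.495), with D-3 replicate 2 the highest of all. Among replication histones, 3 of 12 tested were lower DEGs, with a median of -0.97. Of these, H2AC6 and H2BC5 had -1.88 and -1.17. Of 11 cell cycle inhibitors, GADD45A alone was a DEG and the median was -0.53. CDKN1A, or p21, was at 14.4, 14.6 and 16.3 against 18.4, 25.4 and 20.3 (log2 fold change -0.55 ± 0.15, adjusted p = 0.0725).

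Of 56 cytosolic ribosomal protein genes, none was a DEG, but 46 were lower without overlap (14.5% among all genes tested) and the median log2 fold change was -0.5, in a range from -0.86 to 0.02. Nuclear genes of the respiratory chain had 21 of 43 lower without overlap and 3 higher, with a median of -0.24. Genes for cholesterol synthesis had 15 of 24 higher without overlap, none lower and a median of 0.38 (17.3% among all genes tested). None of these 3 lists held a DEG, and neither did glycolysis, with 19 tested and a median of 0.01. Of 15 listed genes of the mitochondrial genome, MT-CYB, a subunit of complex III, was a DEG, at 2620, 2600.0 and 2620 FPKM against 1020, 1530 and 1240 (log2 fold change 1.0 ± 0.16, adjusted p = 0.02), while MT-ND1 had -0.08 (adjusted p = 0.873). Mitochondrial transcripts took 4.73% to 4.76% of counts in DP-3 day 1 and 2.83% to 4.05% in D-3.

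Lists of stress and nutrient handling held at most 2 DEGs each. Lower DEGs were 4.17% of the hypoxia response, 3.85% of NRF2 targets and 3.33% of lysosome genes. They were 8.33% of the tryptophan list and 40.0% of the 5 metallothionein list genes, against 2.00% of all genes tested. Higher DEGs were 4.17% of the hypoxia response, against 0.972%. In the hypoxia response, 12 of 24 genes tested were lower without overlap (50.0%) and 3 higher (12.5%), with a median of -0.43. Over all genes tested these shares were 14.5% and 17.3%. ANGPTL4, an inhibitor of lipoprotein lipase, was the higher DEG, at 32.1, 34.8 and 32.9 FPKM in DP-3 day 1 and 14.1, 19.4 and 14 in D-3 (log2 fold change 1.02 ± 0.15, adjusted p = 0.0175), and the glucose transporter SLC2A3 the lower one, at 7.68, 7.55 and 8.43 against 33.6, 12.8 and 18.4 (log2 fold change -1.5 ± 0.32, adjusted p = 0.041). CA9, a carbonic anhydrase that hypoxia induces, was at most 0.12 in the 6 libraries. Of 26 NRF2 targets and glutathione genes, 15 were higher without overlap (57.7%) and 2 lower (7.69%), with a median of 0.33. One was a lower DEG, the transporter ABCC3 (-1.81 ± 0.23, adjusted p = 0.013). HMOX1, heme oxygenase 1, was at 248, 280.0 and 250 against 171, 139 and 82.3 (log2 fold change 0.94 ± 0.25, adjusted p = 0.0692). The metallothionein list, which also holds the zinc transporter SLC30A1, had 5 genes tested and a median of -0.16, the value of MT1L. MT1E and MT1X were its lower DEGs (-1.04 and -1.09). MT2A, the most abundant, was at 337, 330.0 and 315 against 285, 372 and 367 (log2 fold change -0.11, adjusted p = 0.667). CYP1A1, the classical target of the aryl hydrocarbon receptor, was the one DEG of 12 in a list of tryptophan breakdown and the response to this receptor (median -0.33), at 0.496, 0.359 and 0.413 against 1.22, 2.32 and 1.38 (log2 fold change -2.0 ± 0.34, adjusted p = 0.0224). The protease CTSS was the one DEG of 30 lysosome genes (log2 fold change -1.04 ± 0.21, adjusted p = 0.0373, list median -0.04). Iron handling (16 tested, median 0.19), fatty acid synthesis (14 tested, median 0.35), ribosome biogenesis (22 tested, median -0.01) and autophagy (16 tested, median -0.16) held no DEG. Without overlap, 9 fatty acid synthesis genes were higher (64.3%) and none lower, and 7 iron handling genes were higher (43.8%) and 2 lower (12.5%). In ribosome biogenesis 1 was higher (4.55%) and 5 lower (22.7%), and in autophagy 2 were higher (12.5%) and 5 lower (31.2%).

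**Figure D5:**
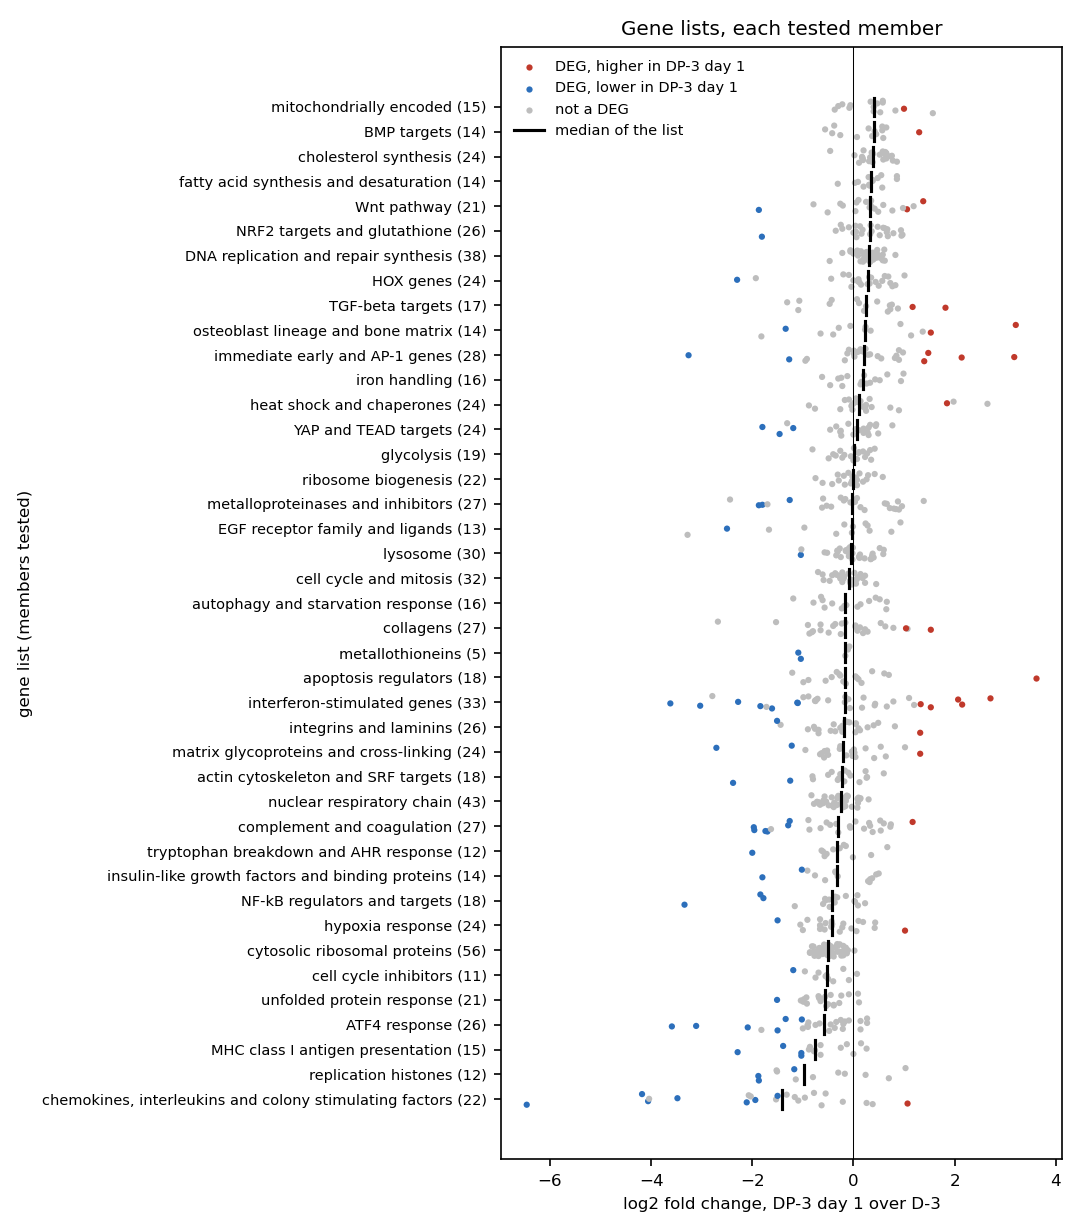
Each point is a tested gene of a list, placed by its log2 fold change of DP-3 day 1 over D-3 on the x axis, with 1 list per row, its number of genes tested in brackets and a bar at its median. Of the lists drawn, which leave out the markers of other cell types, that of chemokines and interleukins and that of replication histones have the lowest medians (-1.41 and -0.97), interferon-stimulated genes spread to both sides, and the ribosomal protein genes form a narrow band left of 0.

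Transcribed copies of ribosomal DNA on chromosome 21 held 27 of the 217 higher DEGs. Of 32 such genes tested, all were higher in DP-3 day 1 without overlap, with a median log2 fold change of 2.77. They took 1.11% to 1.12% of counts in DP-3 day 1 and 0.153% to 0.423% in D-3. The libraries were selected for poly(A), which ribosomal RNA lacks, and the copies cannot be told apart. Their share also varied in DP-3 on day 14, from 0.386% to 1.22%. Without these genes, 625 DEGs were found, of which 187 were higher.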

How the data were processed

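RNA from the 6 libraries, as from the other 12 of the series, was made into strand-marked poly(A) libraries and sequenced in pairs. Per the submitters' processing notes the tools were cutadapt 1.9, HISAT2 2.0.4, StringTie 1.3.4d, DESeq2 and edgeR; the genome build and annotation are not given in the sources used here. For each gene the authors deposited an FPKM and an estimated count. The counts are whole numbers that follow coverage, about 4 per read pair, and were tested as deposited.

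Of the tested genes, 21888 were in GENCODE release 29 (GRCh38) and 99.87% of these overlapped in position. Genes that reached 0.1 FPKM in 3 or more of the libraries compared entered edgeR 4.0.16 (TMM scaling, quasi-likelihood test) in R 4.3.3, with Benjamini-Hochberg adjustment; SEs are the log2 fold change over the root of F. DEGs passed an adjusted p of 0.05 and changed 2-fold or more. The fit was run on simulated counts with the same spread in both groups, which does not cover the unequal spread of these libraries. Genes at or under 12 counts in every library of a group are given as values or as a bound or ratio. Exact permutation tests used scipy 1.17.1. Alternatives were DESeq2, edgeR's likelihood-ratio test, limma on log2(FPKM + 0.1, 1 or 0.01), other scalings and filters, a fit of all 18 libraries, a replicate block and leaving out each library, and 3 were added after seeing the data.

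The groups and the 41 gene lists, with 8 lists of markers of other cell types, were chosen with earlier results of these data known. Genes were named by rule: the 8 DEGs per direction with the largest fold change among genes above 0 in all 6 libraries, the 4 with the highest level, and from each list its first gene and up to 3 DEGs per direction. Other DEGs of a list, other genes set beside them and the genes found in every alternative were named after their values were seen. Some genes that the rule named are not reported here.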

Additional observations from a re-analysis of the deposited data

How the results depend on the processing

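Against 664 DEGs (217 higher and 447 lower in DP-3 day 1), DESeq2 gave 1414 (479 and 935) and edgeR's likelihood-ratio test 1416 (500 and 916), which held 658 and 664 of the 664. Limma on log2(FPKM + 1) gave 284 (110 and 174), of which 251 were shared. One fit of all 18 libraries gave 142 higher DEGs, and its 446 DEGs in all stayed within 1.5 times. Leaving out 1 library gave 28 to 1315 DEGs, 8 to 557 higher and 20 to 758 lower; these fits kept the genes tested. Summing the DP-3 day 1 libraries to 1 sample, added after seeing the data, gave 0 DEGs, 0 higher and 0 lower, a fit in which the lone sample is assumed to vary like D-3. The other 10 alternatives gave 524 to 714 DEGs.

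With a replicate block there were 174 DEGs (61 and 113). The replicate numbers did not pair the libraries: same-numbered deviations correlated at -0.02, -0.00 and -0.01. Of 116 named DEGs, none changed direction in any alternative.

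The ratio of genes detected, DP-3 day 1 over D-3, was 1.13 at an FPKM of 0.1 and 0.995 at an FPKM of 1, the other direction. Counting 12 estimated counts as the limit of detection, 0.178 to 0.238 CPM per library, genes under it could not be compared.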
